A study of Mus musculus with 4 samples.

Results

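The complement genes C3, C4b, Cfb, Serping1, C1qa, C1qb, C1qc, C3ar1 and C5ar1 were followed in single cells of intervertebral discs from the mouse tail. A disc is the fibrous and cartilaginous cushion that joins neighbouring vertebrae. They were taken by symbol from the 32285 genes of the deposited tables, and all 9 were found with at least 76 UMIs each (a UMI is 1 counted transcript molecule). Their UMIs were read in 3846 cells, defined as barcodes with at least 250 detected genes. There were 2 control libraries and 2 libraries of needle-punctured discs, 1 of each in each of 2 rounds. Mice were wildtype C57BL/6 females of 12 weeks, and punctured discs were taken 7 days after a bilateral puncture with a 30G needle. Control discs were unpunctured discs from further down the tail of those same animals, so tail level and injury cannot be told apart. Per the labels, 6 mice were pooled to give 30 discs a group, and the labels do not say whether this holds for each round. The pooled cells were frozen, thawed and sorted for viability before droplet capture.

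Complement is a cascade of plasma and tissue proteins. C1q, built from the chains of C1qa, C1qb and C1qc, starts the classical pathway on antibodies, dying cells and altered matrix. C4 and C2 then form an enzyme that cuts C3, factor B (Cfb) does the same in the alternative pathway, and the released C3a and C5a fragments act on the receptors C3ar1 and C5ar1. Serping1 encodes C1 inhibitor, which blocks the proteases bound to C1q. Macrophages are a known source of C1q, and cartilage and fibroblasts can make C3, factor B and C1 inhibitor outside the liver.

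In these discs the members were split between cell types. Macrophage-like cells, 132 of the 3846, held 91.0% of all C1qa UMIs, 95.4% of C1qb, 93.4% of C1qc, 96.3% of C3ar1 and 93.4% of C5ar1. They held 1 UMI each of C3, C4b, Cfb and Serping1. Matrix cells, the 2581 disc cells with cartilage, annulus or nucleus pulposus markers, held 88.6% of the 2099 C3 UMIs. The matrix-cell genes divided again by class. Fibroblast-like clusters were named from markers such as Col1a1, Aspn and Postn, while the outer annulus markers Myoc and Angptl7 led a mixed annulus cluster. As shares of all UMIs of a gene, 93.1% of C4b lay in cartilage-like (inner annulus or cartilage) cells. For Cfb and Serping1, 65.3% and 53.1% lay in fibroblast-like cells. The last 2 shares rest on injured round 2: without it, fibroblast-like cells held 15 of 50 Cfb UMIs, beside 16 in cartilage-like cells, and 19.9% of the 604 Serping1 UMIs. Among vascular cells, Serping1 had 109 UMIs, 106 of them in mural-like cells (the contractile cells around vessels), against 4 of C3, 4 of Cfb and 1 of C3ar1. Classes were rebuilt from clusters made without any of 54 complement genes, and each is named "-like" from fixed markers. Class levels are descriptions with no test.

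Promoters, taken from RefSeq (GRCm38.p6), are shown for C1qb and C1qc and for C3, because the C1q genes are neighbours read in the same cells and C3 is the matrix cells' most abundant member. C1qb (chr4:136880129-136886187), C1qc (chr4:136889804-136893065) and C1qa (chr4:136895917-136898803) lie on the minus strand within 18.7 kb. Sequences run 5′ to 3′ from 250 bases before to 50 bases after the start RefSeq gives. Gene positions are GENCODE's, whose start is the same for C3 but lies 13 bases inside the gene from RefSeq's for C1qb and 151 bases upstream of it for C1qc. In C1qb (chr4:136886151-136886450, minus strand) and C1qc (chr4:136892865-136893164, minus strand), capitals mark GAGGAA or its reverse complement, the core bound by the myeloid factor PU.1.
C1qb: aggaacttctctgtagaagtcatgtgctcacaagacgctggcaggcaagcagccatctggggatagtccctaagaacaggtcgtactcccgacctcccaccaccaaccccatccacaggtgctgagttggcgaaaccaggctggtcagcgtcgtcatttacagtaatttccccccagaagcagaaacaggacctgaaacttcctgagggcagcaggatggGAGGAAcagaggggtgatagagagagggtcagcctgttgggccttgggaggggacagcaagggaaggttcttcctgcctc
C1qc: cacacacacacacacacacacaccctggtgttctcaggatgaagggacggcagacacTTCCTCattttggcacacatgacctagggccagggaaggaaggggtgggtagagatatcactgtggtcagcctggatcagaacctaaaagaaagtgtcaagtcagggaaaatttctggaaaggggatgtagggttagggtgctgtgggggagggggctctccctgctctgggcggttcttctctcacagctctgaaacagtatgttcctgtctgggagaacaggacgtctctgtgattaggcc
In C3 (chr17:57228087-57228386, minus strand), capitals mark TTNNGNAA, a pattern of C/EBP factors, which drive acute-phase genes.
C3: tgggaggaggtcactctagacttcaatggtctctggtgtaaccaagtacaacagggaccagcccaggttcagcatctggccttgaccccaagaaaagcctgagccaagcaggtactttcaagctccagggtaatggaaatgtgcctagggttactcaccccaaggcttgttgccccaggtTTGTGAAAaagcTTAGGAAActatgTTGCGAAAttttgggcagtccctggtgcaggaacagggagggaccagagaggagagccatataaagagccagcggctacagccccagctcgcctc
Both strands were searched. GAGGAA lay 30 bases before the RefSeq start of C1qb and, on the other strand, 193 bases before that of C1qc, which is 43 and 42 bases before the GENCODE starts. TTNNGNAA gave 4 matches in C3, at 70, 58 and 45 bases before the start, the last on both strands. A match is common: 28.3% of 32851 promoters of this length held GAGGAA and 40.7% held TTNNGNAA. An NF-kB pattern (found in 1.63% of promoters) lay in C3ar1, 14 bases before its RefSeq start, and in no other of the 5 members with a promoter sequence. An interferon-response pattern (in 3.44% of promoters) was in none of the 5 windows. TTNNGNAA also lay once each in C1qc and C5ar1.

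Depth differed between the groups. The libraries held 1114210 to 16972879 UMIs, and a median control cell had 1061.5 (round 1) or 836 UMIs (round 2), whereas a median injured cell had 7033.5 or 4635. Levels are therefore given as CPM, a gene's UMIs divided by all UMIs of the same cells and library and scaled to 1000000, with exact 95% Poisson intervals that cover counting error only. Of the 378 cells of control round 1, 159 had barcodes that injured round 1 also held at 0.3 of their UMIs or more. For 55 of these the injured total was 0.3 to 3 times the control total, and for 104 it was higher. Clusters with over 50% of their control round 1 barcodes in that like range were left unnamed and are called clusters of shared barcodes. They held 516 cells, 44.3% of control round 2 cells and 1.31% of injured round 2 cells among them, although barcodes could be checked in round 1 only. Named clusters held shared barcodes too: 110 of the 202 cartilage-like cells of control round 1 were not shared.

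C3, the central component that both pathways cut, was read in 905 cells (chr17:57203970-57228136, minus strand). Its level in cartilage-like cells was 95.3 CPM in control round 1, 89.7 in control round 2, 87.5 in injured round 1 and 107 in injured round 2. The groups overlapped. The class lay in different clusters in each library: those led by Cytl1 and by Hmga2 held 80 each of its 202 cells in control round 1, the one led by Grem1 201 of 236 in control round 2, the one led by Ccl7 218 of 462 in injured round 1 and the one led by Saa1 509 of 783 in injured round 2. This holds for every cartilage-like value compared between groups. Cells with at least 1 C3 UMI made up 20.3% of control and 31.3% of injured cartilage-like cells, but at 1000 UMIs drawn from each cell the shares were 8.90% (337 cells) and 8.91% (1224 cells). Across cartilage-like clusters, libraries pooled, C3 ran from 19.0 CPM in the cluster led by Hmga2 and Pax1 to 132 in the one led by Ccl7 and Mmp3. The Hmga2 cluster was uneven: 98.9 and 0 CPM in control rounds 1 and 2, and 16.7 and 9.68 in injured rounds 1 and 2. Its control round 1 value rests on 6 UMIs, and 97.5% of its cells there were on shared barcodes. The cluster led by the acute-phase genes Saa1 and Lcn2 had 112 CPM. In the mixed annulus cluster, which held as many cartilage as fibroblast markers and was led by Angptl7 and Myoc, C3 was at 113, 206, 118 and 162 CPM in control rounds 1 and 2 and injured rounds 1 and 2. The control libraries bracketed the injured ones. No C3 UMI was found in 109 nucleus pulposus-like cells, where 181947 UMIs allow up to 16.5 CPM, nor any UMI of the other members. These cells had a median of 46.0% mitochondrial UMIs and 103 of them came from control libraries.

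**Figure D1:**
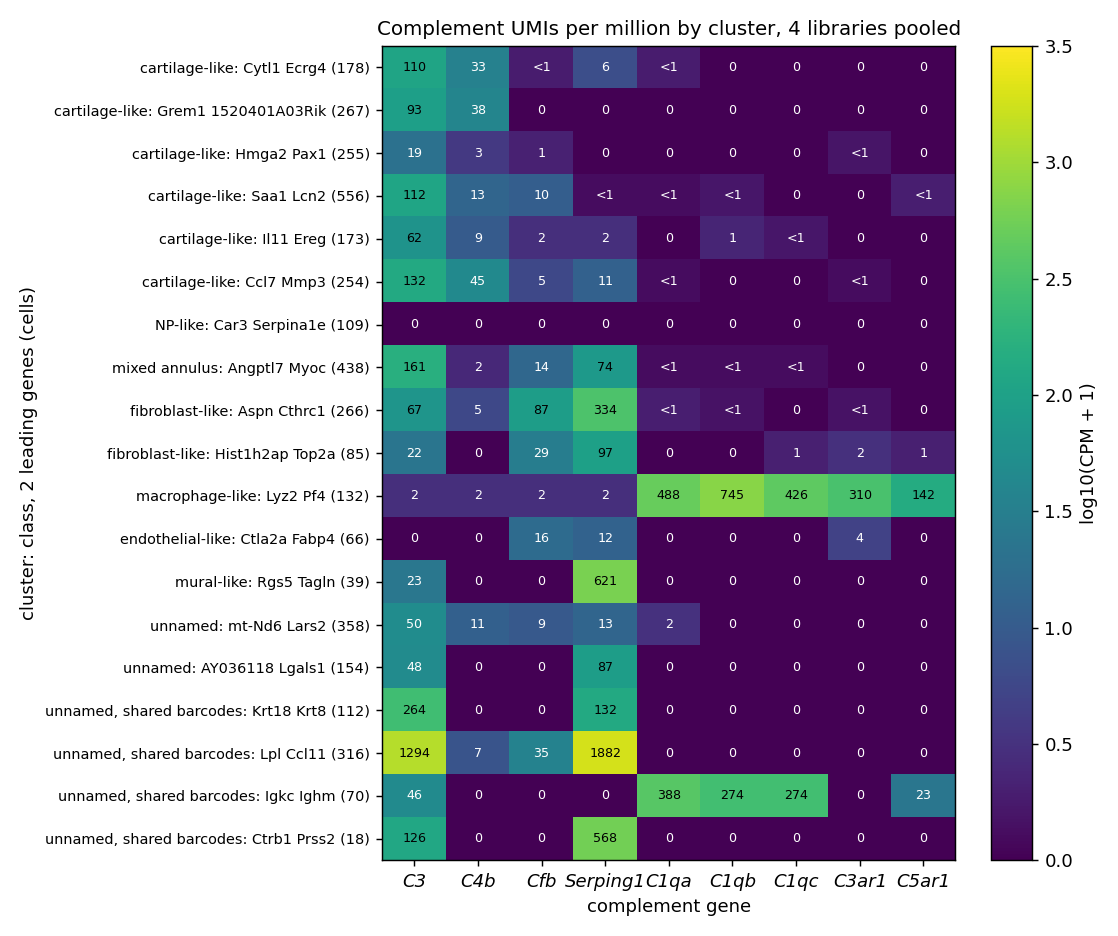
Level of the 9 complement genes in 19 clusters, UMIs of the 4 libraries pooled. Rows are clusters with their class, 2 leading genes and number of cells, columns are genes, printed values are CPM and colour is log10(CPM + 1). C1q chains and both receptors are bright in the macrophage-like row, C3 in most matrix rows, and Serping1 in mural-like and fibroblast-like rows.

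The highest C3 level lay outside the named classes. In the cluster of shared barcodes led by Lpl, Ccl11 and Dpep1, C3 was at 1294 CPM and Serping1 at 1882 CPM. That cluster held 316 cells, 267 of them from control round 2, and it also expressed the fibroblast markers Col3a1, Lum, Dcn and Dpt. Clusters of shared barcodes held 9.77% of all C3 UMIs and 18.9% of Serping1 UMIs. Median depth in them was 409.5 UMIs, against 5681 in matrix cells.

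C4b encodes complement C4, the next substrate after C1 (chr17:34728380-34743882, minus strand). Its level in cartilage-like cells was 28.5 and 17.4 CPM in control rounds 1 and 2, and 23.3 and 26.5 in injured rounds 1 and 2. The groups overlapped. In the mixed annulus cluster only injured round 2 held any, at 2.16 CPM. C4b was unevenly spread over cells: 19 of the 97 cells with a UMI had 5 or more, and these 19 held 62.3% of its UMIs, up to 27 in 1 cell. For C3, by contrast, 104 of 905 such cells held 38.1%. With libraries pooled, the cartilage-like clusters led by Ccl7 and Mmp3, by Grem1 and by Cytl1 had the most C4b, at 45.2, 37.7 and 33.4 CPM. That order changed by library. In control rounds 1 and 2 and injured rounds 1 and 2, the Grem1 cluster was at 39.9, 21.5, 0 and 155 CPM. The Ccl7 cluster was at 29.0, 0, 37.4 and 130, and the Cytl1 cluster at 30.6, 45.9, 25.4 and 46.2. C4b values are uncertain because the last 500 bases of the C4a and C4b transcripts are 97.6% identical.

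Cfb, factor B of the alternative pathway (chr17:34856374-34862518, minus strand), had its highest pooled level in fibroblast-like cells among the named classes. The non-dividing fibroblast-like cluster, led by Aspn and Cthrc1, had 87.0 CPM and the dividing one, led by Hist1h2ap and Top2a, 29.3. Levels in fibroblast-like cells were 141 CPM in control round 1 (5 UMIs), 25.9 in control round 2 (1 UMI), 38.8 in injured round 1 and 71.4 in injured round 2. The control values rest on 7 cells each and span both injured values. In cartilage-like cells Cfb was at 1.42 and 0.831 CPM in control (1 UMI each) and 2.55 and 7.73 CPM in injured rounds 1 and 2. Both injured values there were above both control values, but their counting intervals overlapped in round 1, and the control round 1 UMI was on a shared barcode. In the mixed annulus cluster Cfb was at 0 and 6.59 CPM (1.36 to 19.3) in control and 18.4 (7.40 to 37.9) and 15.5 CPM (10.9 to 21.5) in injured rounds 1 and 2, where the values did not overlap between groups but the counting intervals did in both rounds (0 in control round 1 allows up to 21.2 CPM). Over the pooled libraries, Cfb and C3 tended to be read in the same cells. Among fibroblast-like cells, 65.6% of the 61 with C3 also had Cfb (95% Clopper-Pearson interval 52.3 to 77.3%), against 19.0% of the 290 without C3 (14.6 to 24.0%). Their median depths were 8107 and 6973.5 UMIs. Among cartilage-like cells the shares were 6.05% and 0.997%, at 7593 and 4926 UMIs. Depth moved with both differences, and its part in them was not tested. Injured round 2 gave 322 of the 351 fibroblast-like cells, which include the dividing cluster. These shares were not split by library or cluster.

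Serping1, the C1 inhibitor gene (chr2:84765387-84775444, minus strand), was at 621 CPM over the 39 mural-like cells, 35 of them from injured libraries. Injured round 1 had 630 CPM there (477 to 817) and injured round 2 had 772 (561 to 1036). Control round 2 had 5 UMIs in 2 mural-like cells, and control round 1 had none in its 2 cells. In the injured libraries mural-like cells were above fibroblast-like ones. In control round 2 they were below them, and in control round 1 the 2 classes could not be separated, since 0 of 3601 UMIs allows up to 833 CPM. Endothelial-like cells, which line vessels, had 11.7 CPM over 66 cells. In fibroblast-like cells Serping1 was at 1041 CPM (733 to 1435) in control round 1, 960 (676 to 1323) in control round 2, 198 (145 to 264) in injured round 1 and 246 (228 to 265) in injured round 2. Both injured values were below both control values, and the intervals did not overlap. The injured to control ratio was 0.190 (0.121 to 0.302) in round 1 and 0.256 (0.184 to 0.367) in round 2. The injured class also held the dividing cluster, with 4 and 80 cells against 0 and 1 in control rounds 1 and 2. Within the cluster led by Aspn and Cthrc1 alone, Serping1 was at 1041 and 1126 CPM in control and 342 and 306 in injured rounds 1 and 2, with ratios of 0.328 (0.208 to 0.520) and 0.272 (0.195 to 0.390). Each control value of the whole class rests on 37 UMIs in 7 cells, under the 10 cells a library needed for a test, so none was made. None of those 7 cells in control round 1 had a shared barcode. C3 in these cells also had lower injured values, at 760 and 104 CPM in control against 43.1 and 44.0 in injured. Only the round 1 ratio, 0.0567 (0.0245 to 0.121), had an interval below 1, and in the Aspn and Cthrc1 cluster alone it was 0.0880 (0.0364 to 0.193).

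Over all matrix cells together, Serping1 went in opposite directions in the 2 rounds. It was 66.8 CPM in control and 22.1 in injured cells of round 1, and 33.2 in control and 84.9 in injured cells of round 2. The ratios were 0.331 (0.244 to 0.454) and 2.56 (1.97 to 3.39). The fibroblast-like share of matrix cells was 2.66% (control) and 2.87% (injured) in round 1, and 1.86% (control) and 22.7% (injured) in round 2. The share of fibroblast-like cells thus moved with the matrix-wide level in round 2, while the level within those cells was lower in injured libraries of both rounds. In cartilage-like cells Serping1 stood at 12.8, 0.831, 5.11 and 2.51 CPM in control rounds 1 and 2 and injured rounds 1 and 2, with the injured libraries between the control ones. In the mixed annulus cluster the injured to control ratio was 1.34 (0.770 to 2.44) in round 1 and 1.29 (0.823 to 2.13) in round 2.

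**Figure D2:**
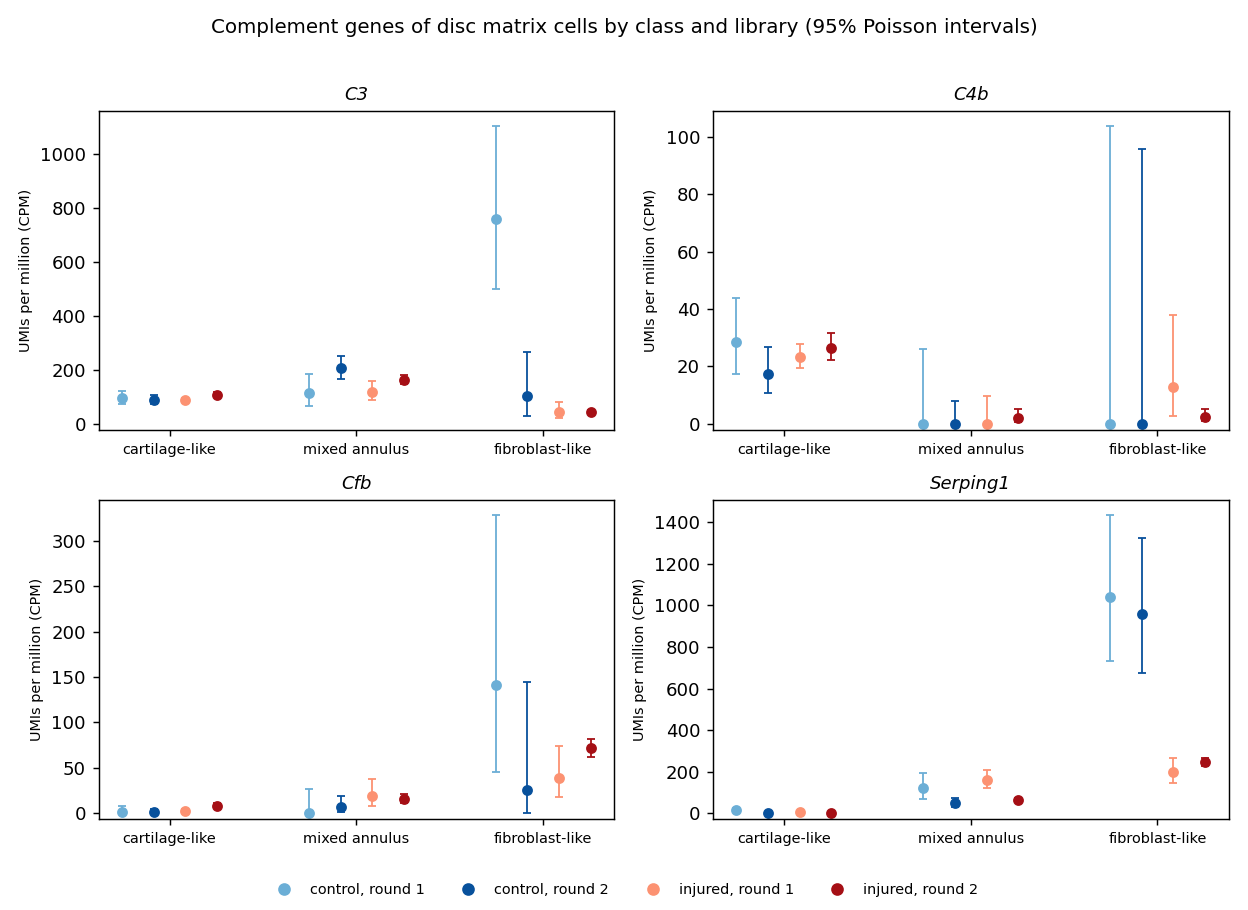
CPM of C3, C4b, Cfb and Serping1 in 3 classes of disc matrix cells, 1 point per library with its 95% Poisson interval, vertical axes differing between panels. Serping1 in fibroblast-like cells is near 1000 in both control libraries (1041 and 960) and 198 and 246 in the injured ones, and C3 in cartilage-like cells lies between 87.5 and 107 in all 4.

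**Figure D3:**
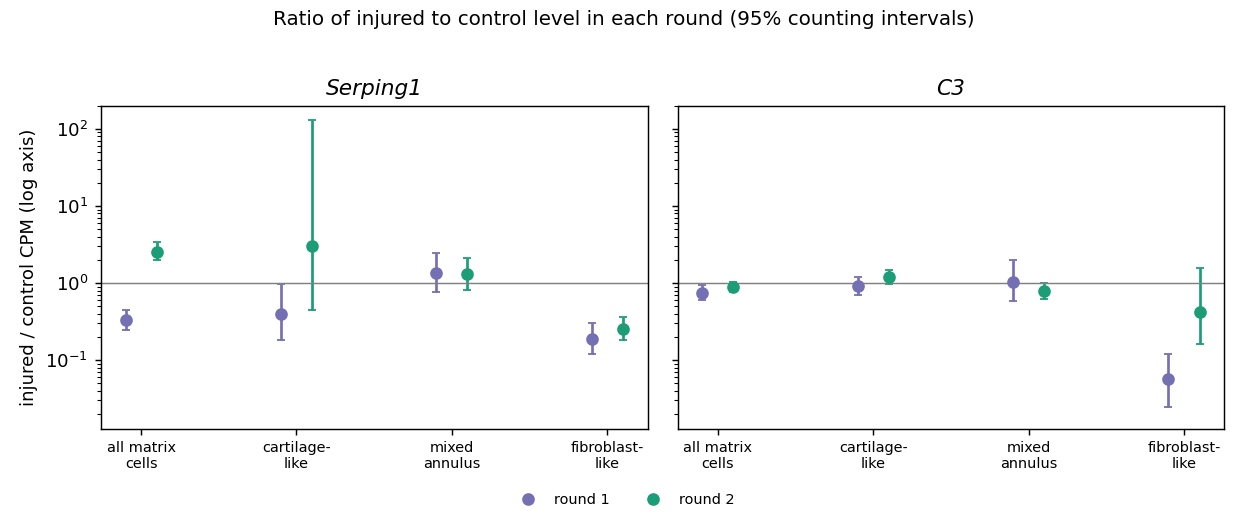
Ratio of injured to control CPM of Serping1 and C3 in each round with 95% counting intervals, on a log axis, for all matrix cells and 3 classes of them. For Serping1 the all-matrix ratios lie on both sides of 1 (0.331 and 2.56), and the fibroblast-like ratios are both below 1 (0.190 and 0.256).

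The C1q chains were read in a part of the macrophage-like cells only. Any chain was found in 68 of 132 cells (51.5%, 42.7 to 60.3%), and all 3 chains in 30 of them. Cells with a chain had a median of 3994 UMIs and those without had 2739, and the part of depth was not tested. By library the share was 26 of 39 in injured round 1 and 39 of 89 in injured round 2. Among matrix cells the share was 15 of 2581 (0.581%), although their median depth of 5681 UMIs exceeded the 3307 of macrophage-like cells. Counts were concentrated: 23 macrophage-like cells with at least 10 C1q UMIs held 82.1% of the 829 C1q UMIs of the class. C1qa levels were 748 CPM in control round 2, 651 in injured round 1 and 373 in injured round 2. C1qb stood at 2197, 802 and 608 CPM in the same libraries, and C1qc at 655, 557 and 319. For each chain the order was control round 2, injured round 1, injured round 2. The control value comes from 3 cells, and for C1qa and C1qc its interval overlapped that of injured round 1 (C1qa 428 to 1215 against 539 to 781). Control round 1 had 1 macrophage-like cell, on a shared barcode, and gives no level.

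C1q was also read outside the macrophage-like class. The cluster of shared barcodes led by the immunoglobulin genes Igkc and Ighm had 388 CPM of C1qa, from 17 UMIs in 11 of 70 cells. Its C1qb and C1qc were at 274 CPM each, and C3ar1 was at 0.

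The receptors C3ar1 (chr6:122847138-122856161, minus strand) and C5ar1 (chr7:16246743-16259540, minus strand) followed the macrophage-like cells. C3ar1 was read in 55.3% of them and C5ar1 in 29.5%, and 22.0% had both. C3ar1 levels were 187 CPM (51.0 to 479) in control round 2, 328 (250 to 424) in injured round 1 and 305 (246 to 375) in injured round 2. C5ar1 was at 0 in control round 2, where 21388 UMIs allow up to 140 CPM, and at 161 and 141 CPM in injured rounds 1 and 2. The 3 libraries could not be separated for either receptor at this depth. C3ar1 was found in 61.8% of C1q-positive cells and 48.4% of the others, with overlapping intervals (49.2 to 73.3% and 35.8 to 61.3%).

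**Figure D4:**
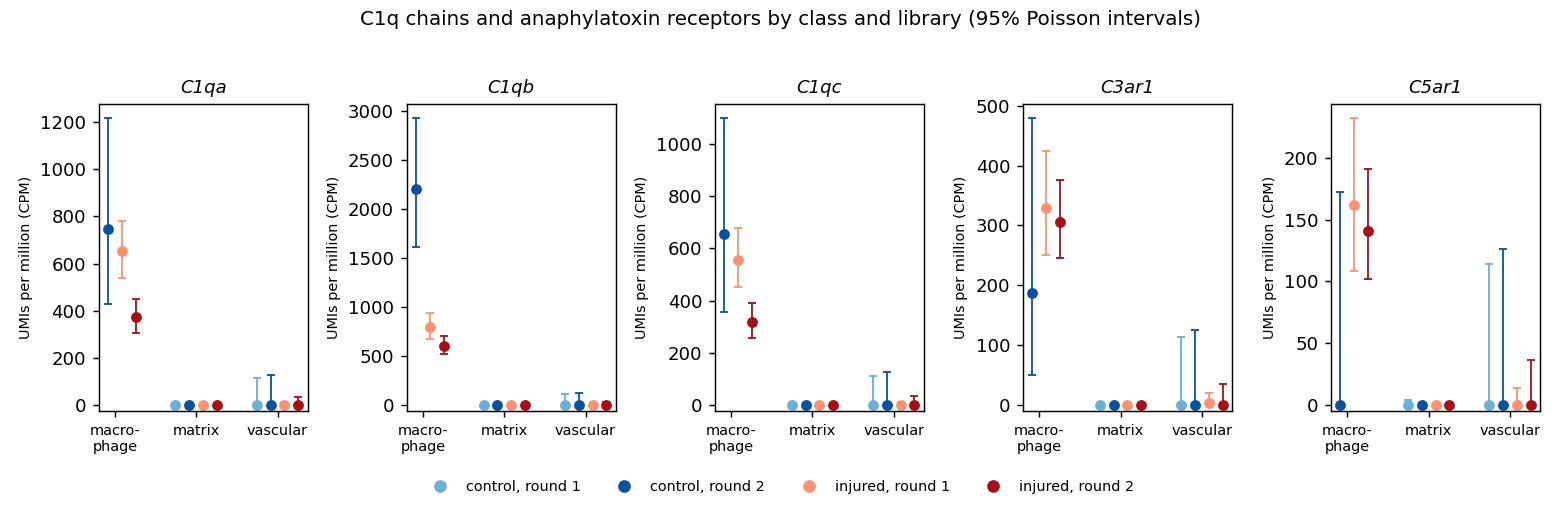
CPM of the 3 C1q chains and the receptors C3ar1 and C5ar1 in macrophage-like, matrix and vascular cells, 1 point per library with its 95% Poisson interval (control round 1 has 1 macrophage-like cell and is not drawn there). The chains and receptors are near 0 in matrix and vascular cells, and the C1qb point of control round 2, from 3 cells, is at 2197.

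Injury was tested on UMI sums per library with edgeR, with injury as the only term and p-values adjusted over all genes by Benjamini-Hochberg. Over all cells none of the 9 members passed an adjusted p of 0.05. Of the 11990 genes tested, 0.117% were called (0 higher, 14 lower), and 948 had an unadjusted p under 0.05. These p-values measure the spread between pooled libraries.

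C3ar1 and C5ar1 had the largest differences over all cells. C3ar1 was at 0.940 and 1.85 CPM in control rounds 1 and 2 (1 and 4 UMIs, the first on a shared barcode), and at 9.37 and 8.81 CPM in injured rounds 1 and 2. C5ar1 was at 0 and 0.463 CPM in control (0 and 1 UMI) and 4.61 and 4.17 CPM in injured libraries. For each receptor both injured values were above both control values, and the share of all genes that separate so is not given here. The log2 fold change was 2.64 ± 0.65 (SE, adjusted p = 0.269) for C3ar1 and 3.82 ± 1.06 (adjusted p = 0.365) for C5ar1, the latter resting on 1 control UMI. Since both groups of a round share their animals, round was also fitted as a replicate block. The adjusted p was then 0.0193 for C3ar1 and 0.0453 for C5ar1, and 2.73% of genes were called higher. Without the shared barcodes the blocked log2 fold changes were 2.96 and 3.75, against 2.63 and 3.80 with them, with adjusted p of 0.0888 and 0.103, and 0.927% of genes were called higher. The share of macrophage-like cells moved with both receptors, from 0.265% to 5.01% of cells in round 1 and from 0.350% to 4.85% in round 2. In bulk sums, more cells of a type and more RNA per cell cannot be told apart.

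Over all cells the C1q chains were not higher in the injured library of both rounds. C1qb was at 2.82 and 24.1 CPM in control and 22.0 and 17.7 in injured libraries, and C1qa at 3.76, 12.0, 18.0 and 11.1 CPM in the same order. Both were higher in the injured library of round 1, by 7.80-fold (2.62 to 38.3) for C1qb, and not of round 2, where the ratio was 0.736 (0.539 to 1.02). All C1q UMIs of control round 1 (4 of C1qa, 3 of C1qb and 7 of C1qc) were on shared barcodes, so without these barcodes that library had 0 of each chain and round 1 gave no ratio. In round 2, without the clusters of shared barcodes, the C1qa ratio moved from 0.921 (0.598 to 1.47) to 1.38 (0.813 to 2.49). Log2 fold changes were between 0.52 and 0.84 for the 3 chains, with adjusted p from 0.824 to 0.922. Without the shared barcodes C1qa, C1qb and C1qc were at 1.11, 0.62 and 1.08, and without them and their clusters at 1.61, 0.61 and 1.55, none called. With 1 library left out in turn C1qa ran from 0.36 to 1.99, highest without control round 2. Of the 52 C1qb UMIs of control round 2, 47 came from its 3 macrophage-like cells.

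Cfb over all cells was at 5.64 and 3.70 CPM in control rounds 1 and 2, 5.35 in injured round 1 and 26.1 in injured round 2. Only injured round 2 stood apart, and the log2 fold change of 1.91 ± 0.86 was not called (adjusted p = 0.664). It rested on that library: without injured round 2 it was 0.28 (adjusted p = 0.999), and without injured round 1 it was 2.66 (adjusted p = 0.0235), where 0.705% of genes were called higher. In injured round 2 the fibroblast-like cells held 198 of the 271 matrix-cell UMIs of Cfb. C3 was at 127 and 168 CPM in control and 84.3 and 98.0 in injured libraries, lower in both injured libraries, with a log2 fold change of -0.62 ± 0.35 (adjusted p = 0.754). Without the shared barcodes and their clusters the C3 value was -0.25. Serping1 was at 79.9 and 132 CPM in control and 34.6 and 85.8 in injured libraries, with a value of -0.73 ± 0.52 (adjusted p = 0.839) that turned to 0.24 without those barcodes and clusters. It was -1.58 without injured round 2 and -0.19 without injured round 1, neither called.

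Within matrix cells 4 members could be tested and none was called, against 0.0178% of 11222 genes. Log2 fold changes were -0.22 ± 0.33 for C3, 0.20 ± 0.48 for C4b, 2.02 ± 0.98 for Cfb and 0.19 ± 0.69 for Serping1. The Cfb value was 0.24 without injured round 2 and 2.79 without injured round 1, and that of Serping1 was -1.11 and 0.87. With the cluster led by Lpl, Ccl11 and Dpep1 counted as matrix cells, Serping1 was at -0.89. In cartilage-like cells 0 of 10367 genes (0%) were called by edgeR (854 at an unadjusted p under 0.05, and 117 called by DESeq2), and C3 differed by 0.19 ± 0.36. In the mixed annulus cluster 0.184% of 4900 genes were called, and C3 differed by -0.15 ± 0.39. A test of the difference between those injury effects, mixed minus cartilage-like, called none of C3, C4b, Cfb and Serping1 (adjusted p = 0.9995 for each in edgeR), where 0.115% of 8724 genes were called.

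**Figure D5:**
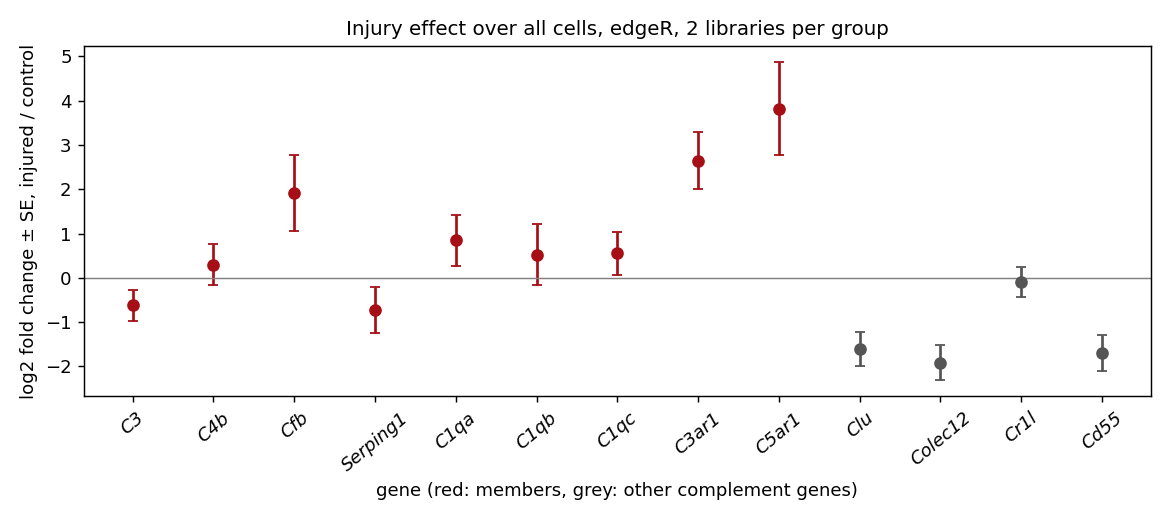
Log2 fold change of injured against control over all cells with its SE, from edgeR with 2 libraries per group, for the 9 members (red) and 4 other abundant complement genes (grey). C3ar1 and C5ar1 lie at 2.64 and 3.82, and Clu, Colec12 and Cd55 between -1.61 and -1.92, and none passes the adjusted threshold in this fit.

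The wider list of 54 complement genes showed which steps of the cascade were read at all. At least 50 UMIs were found for 5 of 7 genes of the classical start, 1 of 9 of the lectin start, 4 of 7 convertase parts, 5 of 8 soluble regulators, 3 of 7 membrane regulators and 5 of 9 receptors. None of the 7 terminal pathway genes, which build the membrane attack complex, reached 50 UMIs. Among the most abundant genes outside the members were Clu (clusterin, an inhibitor of the terminal complex), the scavenger lectin Colec12, and the regulators Cr1l and Cd55. In matrix cells Clu was at 3950 and 3298 CPM in control and 1323 and 939 CPM in injured rounds 1 and 2. Cd55, which speeds the decay of C3-cutting enzymes, was at 87.0 and 159 CPM in control and 31.3 and 36.5 in injured libraries. Colec12 was at 169 and 294 CPM in control and 48.5 and 61.2 in injured libraries. For each of these, both injured values were below both control values, and the share of all genes that separate so is not given here.

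The main edgeR fits had injury as the only term, TMM scaling, the default filters and all 4 libraries. They called 0 of 24 tested genes of the wider list over all cells and 0 of 13 in matrix cells. At an unadjusted p under 0.05 there were 8 and 4 list genes, against 948 of 11990 and 860 of 11222 of all genes. DESeq2 called 4 list genes lower over all cells and 4 in matrix cells, against 1.16% and 0.775% of all genes called lower. With round as a block, 0 of the 13 tested in matrix cells rose and 4 fell, against 2.09% of all genes called lower. Among them were Colec12 (log2 fold change -1.98 ± 0.26, adjusted p = 0.00223), Cd55 (-1.75 ± 0.26, adjusted p = 0.00457) and Clu (-1.64 ± 0.34, adjusted p = 0.0227). Without the shared barcodes the blocked value for Clu was -1.68 and not called (adjusted p = 0.0585), while Colec12 and Cd55 were, with 0.794% of genes called lower. Over all cells with the block, 2 of 24 rose (C3ar1 and C5ar1, with 2.73% of all genes called higher) and 6 fell, including C1s1 and Vtn, with 3.41% called lower. Without the shared barcodes 0 rose and 3 of 23 fell, with 1.11% called lower: C3ar1 and C5ar1 (values above), Clu (-1.65 against -1.61, adjusted p = 0.0561) and C1s1 (-1.19 against -1.61, adjusted p = 0.206) were not called, and Vtn did not pass the low-count filter. The list's median log2 fold change in matrix cells was -0.13 with the block, beside -0.01 for all genes tested. Cr1l was at 69.0 and 70.8 CPM in control and 73.1 and 51.6 in injured matrix cells, a difference of -0.13 ± 0.25 with the block.

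The other parts of the C1 complex and the other receptors had their own places, described here for genes of that list picked after their values were seen. C1ra and C1s1 encode the proteases that C1q carries. Macrophage-like cells held 1 of the 202 C1ra UMIs and none of the 136 C1s1 UMIs. Fibroblast-like cells held 44.1% of C1ra UMIs, and cartilage-like cells 29.2%. Of C1s1 UMIs 40.4% lay in fibroblast-like cells, 35.3% in the clusters of shared barcodes and 21.3% in mural-like cells, at 170 CPM. Injured round 2 gave 85 of the 89 C1ra and 50 of the 55 C1s1 UMIs of fibroblast-like cells. Serping1, the inhibitor of both proteases, also had its highest pooled levels among named classes in mural-like and fibroblast-like cells. Itgam and Itgb2, the subunits of complement receptor CR3, lay in macrophage-like cells with 92.0% and 91.9% of their UMIs. Cd93, an endothelial and myeloid surface protein once described as a C1q receptor, lay mostly in endothelial-like cells (81.5%, 481 CPM) with 13.9% in macrophage-like cells. Clu was mainly in cartilage-like cells (68.6%).

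The genes whose levels over the 19 clusters were most like a member's were found by Pearson correlation of log2(CPM + 10), given here as a description over clusters that share libraries. For C4b these were Chrdl2 (r = 0.913), Grem1 (0.884) and Gm43660 (0.871), and for C3 they were Cpq (0.824), Oat (0.814) and Naxd (0.787). For Serping1 they were Igfbp4 (0.949), Gpm6b (0.912) and Cygb (0.907). For C1qa the leading 3 were Cybb, Lilrb4a and Mpeg1, and for C5ar1 they were Ccl17, Il10ra and Wfdc17. Without the clusters of shared barcodes Chrdl2, Grem1 and Gm43660 remained the closest to C4b. The closest to Serping1 became Ankrd29, Fap and C1qtnf2, and the closest to C3 became Fasn, Pdgfrl and Pax9. For C1qa they became Ccl6, Wfdc17 and Tnip3, and for C5ar1 Lilrb4a, Ccl17 and Clec4a2.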

How the data were processed

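Single cell RNA was measured in 4 droplet libraries. The deposited values are UMI counts per gene and barcode, not normalized, made with Cell Ranger on mm10 per the labels; per the file headers, control round 1 used version 6.0.0 and the others version 4. Gene and barcode names were deposited beside them as text. Control round 1 listed 444 barcodes of at least 502 UMIs and the other libraries 1194644 to 6794880 barcodes. The members, lists and tests were chosen with earlier results of these data known.

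Barcodes with at least 250 genes were kept, as the study's text states, and no doublets were removed. Cells were scaled to 10000 UMIs, logged, and clustered without the complement list in Scanpy 1.11.5 (2000 variable genes, 30 components, 20 neighbours, Leiden resolution 1). Clusters were named for the class with most markers detected (in 25% of cells, at 1.2 times the CPM of other cells, at least 3 markers), a scoring set after the clusters were seen. Clusters stayed unnamed with under 3 markers, with low UMIs and no marker among their top 10 genes, or where over 50% of their control round 1 barcodes recurred in injured round 1 with like UMI totals. Rebuilt names can differ from those the authors used. Macrophage-like cells had UMIs of 12 of 12 macrophage markers, with summed levels of 12854 to 20968 CPM by library, and in matrix cells 11 of 12 had UMIs, with sums of 26.5 to 63.7 CPM and Adgre1 at 0.

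UMIs were summed per library and tested two-sided with edgeR 4.0.16 in R 4.3.3 (default low-count filter, TMM, quasi-likelihood, Benjamini-Hochberg), and an SE is the fold change over the square root of F. Classes under 10 cells in a library were not tested. The fits were also run on simulated counts with large fold changes and no round effect or shared barcodes. That run says nothing on smaller changes, on round or on shared barcodes. Round pairs the libraries because, per the labels, control and injured discs come from the same animals. Deviations of same-round libraries correlated at 0.508 over all cells, 0.462 in matrix cells, 0.531 in cartilage-like cells and 0.285 in the mixed annulus cluster. These correlations kept the shared barcodes of round 1 in. The part of those barcodes in them was not tested. Intervals are exact Poisson for CPM and Clopper-Pearson for shares, at 95%, and a count of 0 allows 3 counts. Named genes are the 9 members, list genes called in a test, the 5 most abundant others and the 3 genes most correlated with C3, C4b, Serping1, C1qa and C5ar1. Positions are from the GENCODE annotation of GRCm38. DESeq2 1.42.0, other scaling, cell filters and left-out libraries were tried as alternatives. Some results of the wider list are not reported here.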

Additional observations from a re-analysis of the deposited data

How the results depend on the processing

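The counts of called genes moved widely, and so did several members' values. Over 227 settings of 18 member values, 205 kept direction and side of the threshold, 17 changed sign and 5 passed the threshold. With round as a replicate block the calls were 736 over all cells, 455 in matrix cells, 875 in cartilage-like cells and 179 in the mixed annulus cluster, against 14, 2, 0 and 9 without it. With the block and without the shared barcodes they were 242, 140, 574 and 179, an alternative chosen after seeing the data, as were those on clusters of shared barcodes and the mixed annulus comparison. Without the low-count filter they were 378, 302, 217 and 126, and with DESeq2 181, 125, 117 and 54. At 500 genes per cell there were 0 calls over all cells, 0 in matrix and 12 in cartilage-like cells, and under 10% mitochondrial UMIs 0 in matrix and 10 in cartilage-like cells. Over all cells there were 3 calls without the shared barcodes and 2 without them and their clusters. Leaving out 1 library gave 126 to 273 calls over all cells, 0 to 110 in matrix, 7 to 273 in cartilage-like and 8 to 158 in mixed annulus cells; the lone library is then assumed to vary like the other group's. The cause of these shifts was not tested.

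Besides the calls under the block, Cfb over all cells passed without the filter (log2 2.03, adjusted p = 0.0447), as did C3ar1 (2.76, adjusted p = 0.0320), and the adjusted p of C3ar1 over all its edgeR and DESeq2 settings ran from 0.0193 to 0.498. The block changed no other member's call. Sign changes were of uncalled values. Serping1 over all cells became 0.060 at 500 genes per cell and 0.24 without the shared barcodes and their clusters. In matrix cells it became -0.060 with the block and without shared barcodes and -0.89 with the cluster led by Lpl, Ccl11 and Dpep1. Leaving out 1 library in turn, Serping1 ran from -1.11 to 0.87 in matrix cells, -1.66 to 2.32 in cartilage-like cells and -0.11 to 1.197 in the mixed annulus cluster. Cfb ran from 0.28 to 2.66 over all cells and 0.24 to 2.79 in matrix cells, lowest without injured round 2 in both, and C5ar1 over all cells was 3.29 without control round 1 and 7.75 without control round 2, the latter against 0 control UMIs and so set by the prior count; it did not pass the filter when an injured library was left out. C4b ran from -0.12 to 0.81 over all cells, -0.21 to 0.71 in matrix cells and -0.10 to 0.70 in cartilage-like cells. C1qb over all cells ran from -0.18 to 2.86, and C3 from -0.010 to 0.40 in cartilage-like cells and -0.47 to 0.46 in the mixed annulus cluster. The planned tests of fibroblast-like and vascular cells were not run, since a library held under 10 cells. At Leiden resolution 0.5 the macrophage-like cells were the same in number in each library, and matrix-cell C3 was 87.6 to 117 CPM. Depth limits macrophage-like values in control libraries, with 1 and 3 cells.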

Other observations

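Complement UMIs were also present in barcodes of 10 to 100 UMIs, below the cell filter. They were counted in 3 of the 4 libraries, and what they hold was not tested. C1qa stood there at 23.2 CPM in control round 2, 103 in injured round 1 and 24.8 in injured round 2, and C3 at 25.6, 130 and 31.0 CPM. Serping1 was at 22.9, 106 and 26.1 CPM and C3ar1 at 1.87, 9.45 and 4.47 CPM. For these 4 genes injured round 1 was the highest, and injured round 2 lay near control round 2 for C1qa, C3 and Serping1. Of the 9 members only Cfb was not highest there, at 2.40 CPM in control round 2, 2.36 in injured round 1 and 9.29 in injured round 2. In matrix cells C1qa was below 1 CPM in the pooled libraries, at 6 UMIs in 2581 cells.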
